A study of Mus musculus with 6 samples.

Results

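The 13148 regions described here are ATAC-seq peaks in sequence between genes, at intermediate distance from any protein-coding gene, in mouse embryonic stem cells. They were taken from the peak list of 1 library by position alone. A peak on chromosomes 1 to 19 qualified if it lay outside every protein-coding gene body, over 1 kb from the ends of every annotated gene of any biotype, and over 10 kb and up to 100 kb from the nearest end of a protein-coding gene. The list held 77629 peaks in all and 75108 on chromosomes 1 to 19, of which the members made up 17.5%. Of the other peaks on those chromosomes, 20160 lay within 1 kb of a gene end, 28465 inside protein-coding genes, 6982 between genes at 1 to 10 kb, and 6353 at over 100 kb.

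The cells were of the E14 line, carried an NSD1-dTAG knock-in, which fuses NSD1 to a tag that the small molecule dTAG-13 uses to direct the protein to degradation, and grew in 2i/LIF medium, that is with inhibitors of MEK and GSK3 and the cytokine LIF. The library analysed is the untreated 0 h sample. The series names 6 samples in 6 groups of 1, all of this knock-in line; the other 5 (1, 6 and 24 h of 500 nM dTAG-13, and day 6 embryoid bodies with and without it) were not analysed here, and nothing below bears on the loss of NSD1. With 1 library there is no replicate and no test, and all intervals cover counting error only. They treat peaks as independent, which neighbouring peaks are not, and are therefore too narrow.

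In ATAC-seq the Tn5 transposase inserts adapters where DNA is not covered by nucleosomes, so a peak marks a stretch of accessible chromatin. Accessible sites far from promoters are often enhancers, which transcription factors such as OCT4, SOX2 and NANOG occupy in embryonic stem cells, and others are bound by the insulator protein CTCF. Enhancers can act over long distances and past other genes, so the nearest gene named for a peak below is a label of position and not a target.

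A few members overlapped a window at an annotated transcript start inside a long noncoding RNA (lncRNA) gene, which made it possible to show sequence from inside them. Of the RefSeq promoter windows on GRCm38.p6 (mm10), each from 250 bases before to 50 bases after an annotated start, of which a gene may have several, windows of 37 lncRNAs overlapped 38 members by at least 100 bases, and 14 of these members had their summit inside the window. Since members lie over 1 kb from the ends of every gene, these are internal starts and not the outermost start of the lncRNA gene. 3 examples follow: the tallest of the 38, the tallest that carries a searched motif, and one whose summit lies in the window and that carries the OCT4 octamer. Each is the part of the window that the peak covers, read 5′ to 3′ on the lncRNA's strand, with motif matches in capitals.
Gm33195: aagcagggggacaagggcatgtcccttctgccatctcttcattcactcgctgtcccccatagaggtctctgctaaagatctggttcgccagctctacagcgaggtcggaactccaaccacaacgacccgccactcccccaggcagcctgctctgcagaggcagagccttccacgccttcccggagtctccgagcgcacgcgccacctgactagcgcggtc
Platr6: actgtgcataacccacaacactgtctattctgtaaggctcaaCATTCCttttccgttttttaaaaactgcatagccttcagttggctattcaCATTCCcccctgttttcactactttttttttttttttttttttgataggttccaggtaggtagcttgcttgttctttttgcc
Gm34201: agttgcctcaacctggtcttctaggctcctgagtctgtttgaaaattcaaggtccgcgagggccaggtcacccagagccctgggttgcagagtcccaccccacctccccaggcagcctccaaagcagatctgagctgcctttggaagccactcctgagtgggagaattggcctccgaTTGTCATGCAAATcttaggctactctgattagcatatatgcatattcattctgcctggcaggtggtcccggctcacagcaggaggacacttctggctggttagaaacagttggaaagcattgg

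The Gm33195 stretch, chr13:43864386-43864605 on the plus strand, belongs to a peak with a summit pileup of 150 that lay 61.3 kb from Cd83. Its letters were 62.3% G or C, with 14 CpG dinucleotides, and held none of the 16 motifs searched. The Platr6 stretch, chr10:21845984-21846157 on the minus strand, comes from a peak of pileup 85 that lay 36.03 kb from Sgk1. Platr6 is named as a pluripotency associated transcript. Its capitals mark 2 copies of CATTCC, the core bound by TEAD factors, and it held 1 CpG in 174 bases. The Gm34201 stretch, chr15:84622114-84622413 on the minus strand, comes from a peak of pileup 52 and fold 12.9 that lay 40.6 kb from Prr5. In it the octamer (searched as ATTTGCAT on both strands) began at base 183, counted from the 5′ end of the printed run, and overlapped by 4 letters a joined OCT4-SOX2 element (searched as GCATNACAA) that began at base 178. Over 32544 distinct windows the octamer was found in 1.75%, the joined element in 0.691% and the TEAD core in 14.6%. Over the 38 windows on members the counts were 1, 1 and 5. A match of letters is a description and not a measured binding site.

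Seen as a set, the members were narrow sites of modest height. Height is given here as the summit pileup, a count of how many reads (or fragments) overlap the highest point of a peak, recovered from the deposited values. The members had a median pileup of 19 (95% interval of the median 19 to 20), quartiles of 12 and 33, and extremes of 6 and 1120. Their median width was 429 bp, and 765 of them (5.82%) were 1 kb or wider. By comparison the median pileup was 45 within 1 kb of gene ends, 20 inside genes and 23 over all peaks of chromosomes 1 to 19. Just 354 members (2.69%) reached a pileup of 100, against 16.8% of peaks within 1 kb of a gene end.

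Next to the other 2 classes between genes, the members held a middle place on every measure, and height and fold enrichment ran in opposite orders. Fold enrichment is the authors' own ratio of summit to local background, and it ranks peaks within this list only. The median pileup was 22 at 1 to 10 kb, 19 in the members and 18 beyond 100 kb. The median fold was 6.37 (interval 6.21 to 6.52), 6.95 (6.80 to 6.95) and 7.39. The local background, in units of pileup, had medians of 2.23, 1.57 and 1.302, so the background fell with distance faster than the pileup did. Members at the lowest possible background, the genome-wide level of 1.3 pileup units, numbered 5298 (40.3%), against 24.8% at 1 to 10 kb and 59.7% beyond 100 kb. A pileup of at least 50 was reached by 12.8% of members (Wilson 95% interval 12.2 to 13.4), by 16.0% (15.2 to 16.9) at 1 to 10 kb and by 11.4% (10.7 to 12.2) beyond 100 kb.

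**Figure D1:**
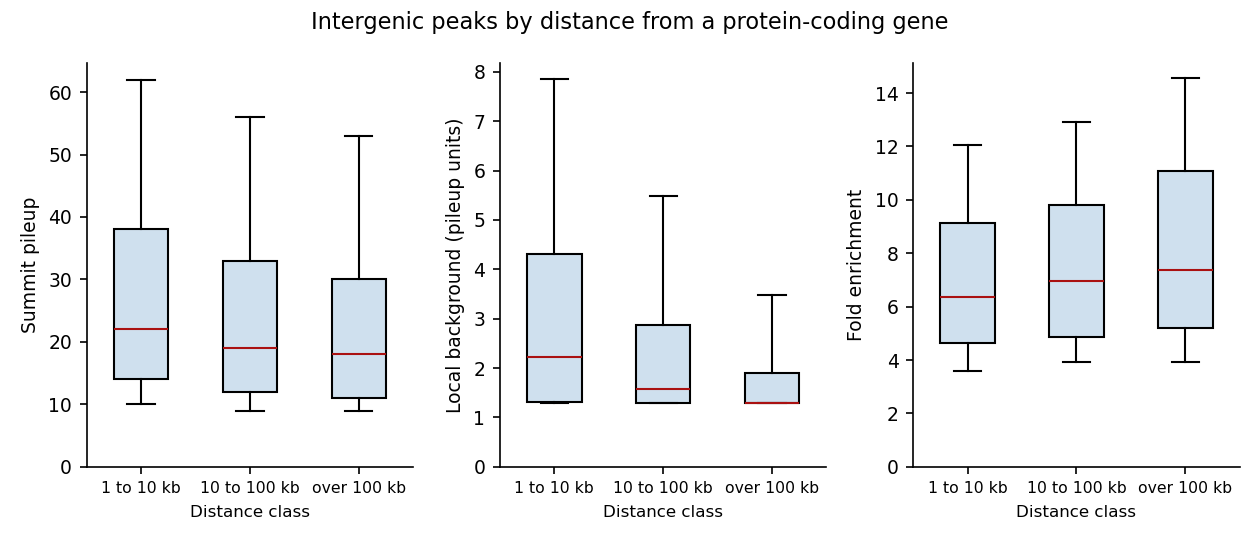
Summit pileup, local background and fold enrichment of intergenic peaks in 3 classes of distance from the nearest protein-coding gene end (6982, 13148 and 6353 peaks). Lines mark medians, boxes quartiles and whiskers the 10th and 90th percentiles; median pileup goes from 22 to 19 to 18 while median fold goes from 6.37 to 6.95 to 7.39.

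The frequency of the sites varied with distance from a gene, and their height barely did. Densities are given per Mb of eligible sequence, that is sequence in which a peak would meet the same rule. The members' density was 26.2 per Mb (exact Poisson 95% interval 25.8 to 26.7) over 502 Mb, against 36.7 (35.8 to 37.5) at 1 to 10 kb and 9.43 (9.20 to 9.66) beyond 100 kb. Within the members it fell from 34.0 per Mb (32.9 to 35.01) at 10 to 20 kb to 17.6 (16.1 to 19.2) at 90 to 100 kb. Across the same 9 distance bins the median pileup stayed between 18 and 20 and the median width between 423 and 440.5 bp. The bin nearest to genes held 4220 members, 32.1% of all, and the median distance was 29.1 kb.

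Members were somewhat denser upstream of their nearest gene than downstream of it. The strand was known for the nearest gene of 10226 members (77.8%). Of these, 5792 lay upstream, at 27.6 per Mb (26.9 to 28.3), and 4434 downstream, at 25.05 (24.3 to 25.8), a ratio of 1.10 (1.06 to 1.15). The upstream density was the higher from 10 to 70 kb, and beyond 70 kb the order varied between bins. In gaps between divergent genes, where both neighbours start towards the gap, the density was 29.2 (28.1 to 30.3). It was 25.9 (25.2 to 26.7) between genes in tandem and 23.6 (22.4 to 24.8) between convergent genes, where both end towards the gap. Median pileups were 19 upstream and 20 downstream.

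**Figure D2:**
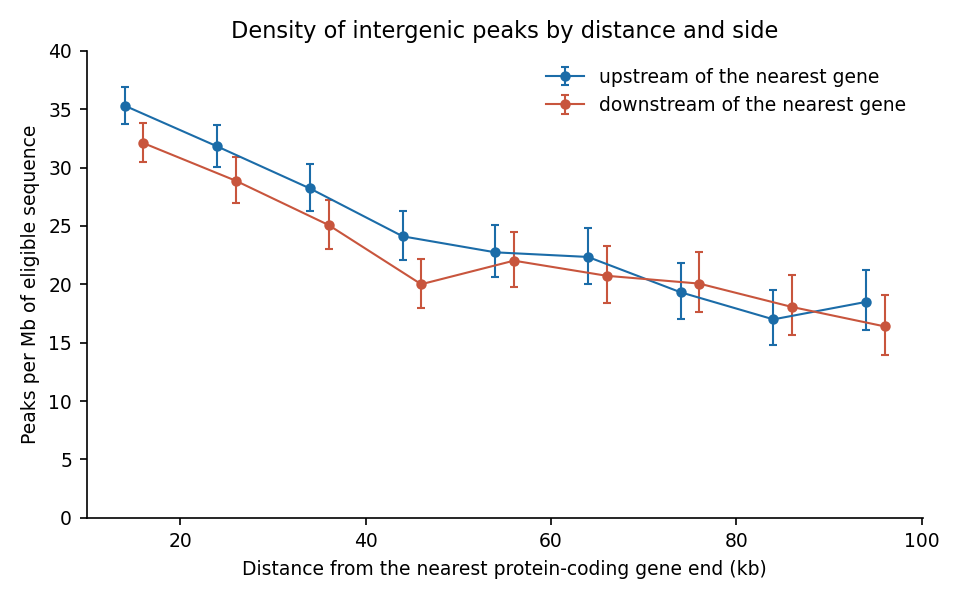
Peaks per Mb of eligible sequence against distance from the nearest protein-coding gene end in bins of 10 kb, for members upstream and downstream of that gene; bars are exact Poisson 95% intervals. Density upstream falls from 35.3 to 18.5 per Mb and density downstream from 32.1 to 16.4.

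At the bounds of the rule, the member closest to a gene lay 10.003 kb from Ksr2, with a pileup of 66, and the peak just outside lay 9.993 kb from Mrpl19, with a pileup of 9. At the far bound the last member lay 99.998 kb from Ccnd2, with a pileup of 20, and the first peak beyond it 100.008 kb from Ext1, with a pileup of 116.

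Members often had another close by, and they were taller in larger groups. Members were joined into clusters where the gap between them was within the limit commonly used to stitch enhancers into super-enhancers, which lies between the 5 and 25 kb tried as alternatives. By this rule 7636 members (58.1%, 57.2 to 58.9) had a neighbour and 5512 stood alone. This majority depends on the setting: the share was 33.6% within 5 kb and 71.1% within 25 kb, and it was 47.5% for members with a pileup of at least 20 and 47.1% with genes of any biotype as neighbours. The median pileup was 17 for members alone, 19 in pairs, 21 in clusters of 3 to 4, 26 (25 to 27) in the 259 clusters of 5 to 9, and 33.5 (29 to 39) in the 18 clusters of 10 or more. The share with a pileup of at least 50 rose along the same classes from 9.36% (8.62 to 10.2) to 30.1% (24.6 to 36.2). The local background rose alongside, from a median of 1.302 to 6.04, and the median fold fell from 7.39 to 5.65. A peak had to pass q up to 0.05 over its local background, so the lowest pileups could be listed only where it was low. How far this limit bears on the higher medians of larger clusters was not tested. Widths varied little, between medians of 420 and 463.5 bp. Of the 354 members with a pileup of 100 or more, 258 (72.9%) were in clusters. Without the largest cluster, the median pileup of clusters of 10 or more was 28 (24 to 32).

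That largest cluster, between Hrh1 and Atg7, stood apart in its regular spacing. Hrh1 encodes a histamine receptor and Atg7 an enzyme of autophagy. The gap of 160 kb held 47 members from chr6:114497354-114629551, at 336 per Mb (247 to 447), with a median pileup of 50, a lowest of 22 and a highest of 131. Counting also the 4 peaks of the gap within 10 kb of either gene, the 51 summits lay at steps of nearly constant length. Of the 50 steps between neighbouring summits, 41 measured 2.19 to 2.72 kb (median 2.44), 8 measured 4.54 to 5.13 kb (median 4.88) and 1 measured 7.25 kb, close to multiples of 1, 2 and 3 of the same length. Within the cluster 39 of 46 steps (84.8%) lay within 15% of the median step, against 0% to 55.6% in the other 17 clusters of 10 or more. The local background over the 47 members was 5.65 to 11.4, while the 85.4 kb body of Hrh1 held no whole peak of the list and the 217 kb body of Atg7 held 2. This spacing was noticed in the data and then measured; what underlies it was not tested.

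The clusters next in size had no such spacing. One of 14 members lay beside Sik1, a salt-inducible kinase, in 55.2 kb of the gap to the lens crystallin gene Cryaa, with a tallest pileup of 113 at 35.6 kb and a widest member of 1024 bp. Another of 14 lay beside Zfp217, a zinc finger gene, where the tallest member (pileup 72) was also the widest (1216 bp). Clusters of 13 lay beside Col18a1, a collagen gene (tallest 88), and Enc1 (tallest 86). The lowest members of these 4 clusters had pileups of 7 to 12, so each mixed tall and low sites.

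**Figure D3:**
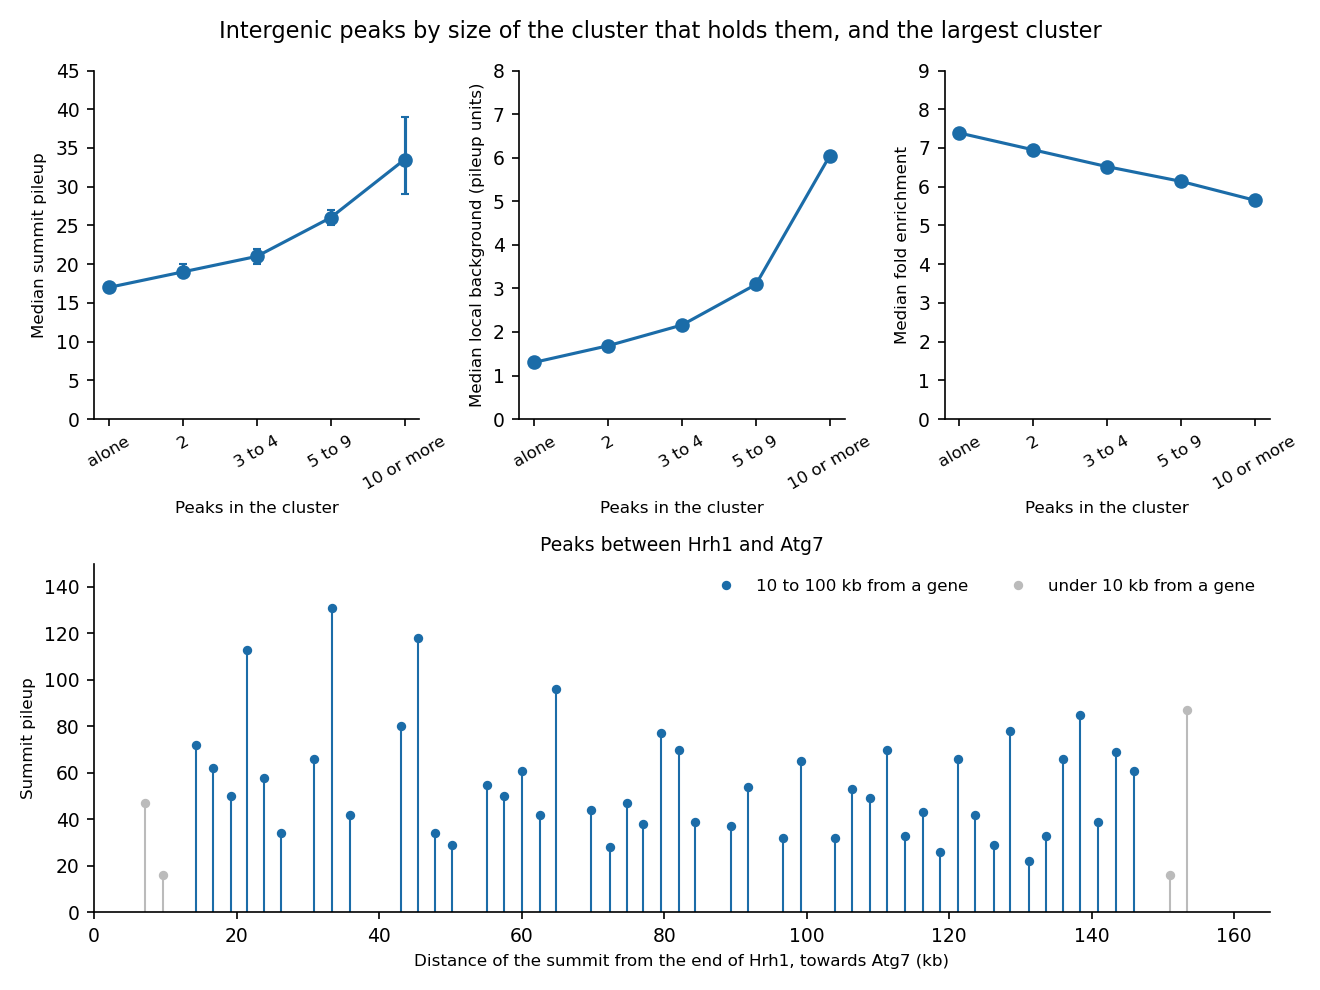
Top: median summit pileup (with 95% intervals of the median), local background and fold enrichment of members alone and in clusters of increasing size. Bottom: summit pileup of each peak between Hrh1 and Atg7 against the distance of its summit from Hrh1; the 51 peaks stand at steps near 2.44 kb or 2 to 3 times that, with a few places empty.

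The 10 tallest members mostly stood alone. The highest pileup, 1120 (exact Poisson 95% interval 1055 to 1188), stood at chr9:35305222-35305595, 29.3 kb from Rpusd4 and inside the lncRNA gene Gm33838. It was 374 bp wide, with a fold of 38.4 over a local background of 28.2. Next came members 21.1 kb from Ly6c2 (632), 60.9 kb from Axin2 (624), 11.6 kb from Gm14496 (487), 16.9 kb from Mrgprd (486), 15.5 kb from Adgre5 (443), 10.06 kb from Myl12b (415), 97.1 kb from Vmn2r87 (306), 29.1 kb from Gm2808 (281) and 30.9 kb from Gm15319 (275). By fold the order was Myl12b (38.6), Rpusd4 (38.4), Adgre5 (36.5), Alkbh8 (31.4), Gm8700 (30.4), Vmn2r87 (28.8), Adgrl2 (28.0), Axin2 (27.9), B230307C23Rik (27.0) and Cr2 (26.8). The 2 sets of 10 shared 5 members. Of the 10 highest folds 9 stood alone and of the 10 highest pileups 7, against 41.9% of all members. The order was the opposite in a longer list by pileup: of the 100 highest pileups 31 stood alone and 30 were in clusters of 5 or more, where 13.4% of all members were, while of the 100 highest folds 69 stood alone. Of the 10 highest folds 7 were under 500 bp wide, near the 60.5% of all members. In the longer lists such narrow members were fewer, 26 of the 100 highest folds and 12 of the 100 highest pileups. The median background of the 10 tallest was 21.5, against 1.57 over all members. Whether reads from repeated sequence add to these peaks was not tested.

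Counted by nearest gene, the members were spread over 5735 of 20661 protein-coding genes (27.8%), and 628 genes were nearest to 5 or more. After Atg7 (24) and Hrh1 (23), which share the regular cluster, came Sall1 (17), a zinc finger factor, and Rybp (16), a subunit of Polycomb repressive complex 1. Sik1, Enc1 and Hes1, a transcriptional repressor of the Notch pathway, had 15 each. Lpp, Gm38457, Med13l and Spring1 had 14 each. Around Sall1, 15 of the 17 lay downstream, and 3 reached a pileup of 100 or more, at 10.6, 23.3 and 76.7 kb. Around Rybp the tallest member, of pileup 194 (168 to 223), was also far off, at 90.4 kb.

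Where genes had some eligible sequence, those with more members beside them more often had an accessible promoter. Among genes with some eligible sequence and at least 1 RefSeq promoter window, a peak overlapped one of the gene's windows in 52.2% of 4927 genes with no member (interval 50.8 to 53.6), 66.8% of 3144 with 1 to 2, 78.3% of 829 with 3 to 4 and 80.8% (77.1 to 84.1) of 490 with 5 or more. Over all genes with a promoter window the share was 64.7%. It was 62.6% of 11992 genes with no member when those without eligible sequence were counted too, a smaller distance from the 66.8%. The length of eligible sequence differs between these classes of genes, and its part in the relation was not tested.

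Genes of the pluripotency network had members at a higher density than genes of the germ layers. Of 39 core and naive pluripotency genes, 29 (74.4%, 58.9 to 85.4) were nearest to at least 1 member, as were 40 of 64 genes of neurectoderm, mesoderm and definitive endoderm (62.5%, 50.3 to 73.3). Over all protein-coding genes this share was 27.8%, the background for each list below. Among genes with some eligible sequence the shares were 82.9%, 71.4% and, over all such genes, 48.4%. Per Mb of eligible sequence nearest to these genes there were 68.6 members (58.5 to 80.03) around the first set and 23.9 (19.5 to 29.1) around the second, where all genes gave 26.2. A density this high was not particular to the first set. Polycomb genes had 88.3 per Mb, and housekeeping and ribosomal genes 87.4, the latter over just 0.217 Mb. The median pileup was 28.5 in the first set and 19 in the second, equal to that of all members. A pileup of at least 50 was reached by 24.1% (18.1 to 31.2) and 11.9% (6.93 to 19.6). The median fold ran the other way, at 6.30 and 7.82. When genes of every biotype were used as neighbours, the share of core and naive genes nearest to a member was 28.2%, and their density was still 3.44 times that of all members.

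**Figure D4:**
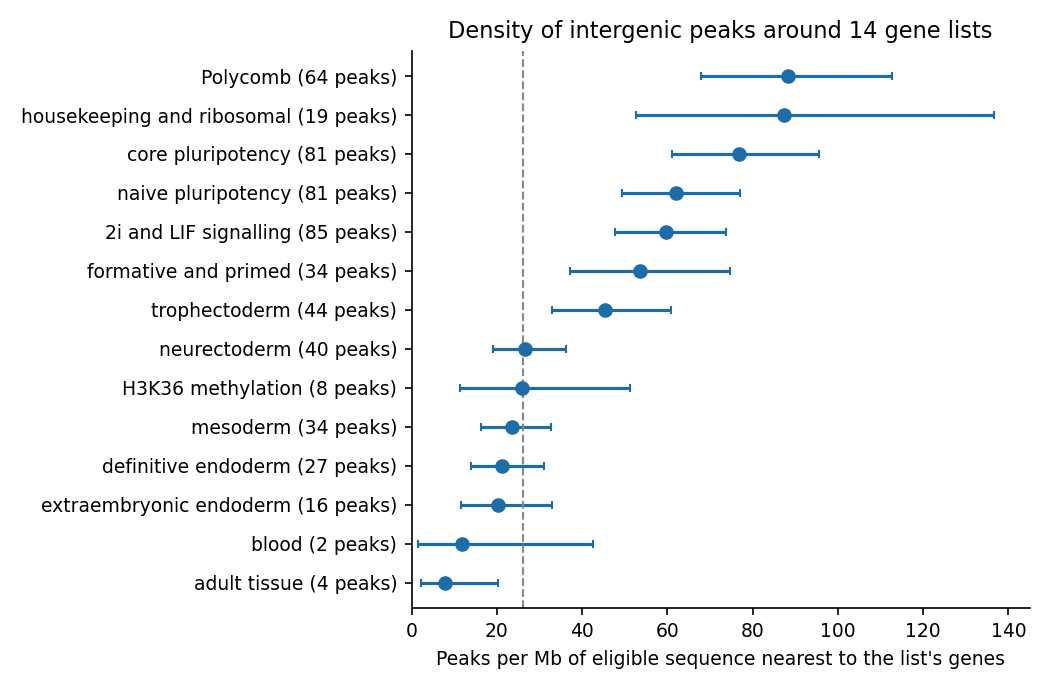
Members per Mb of eligible sequence nearest to the genes of 14 lists, with exact Poisson 95% intervals and the number of members in brackets; the dashed line is the value over all protein-coding genes (26.2). The 7 lists at the top lie between 45.4 and 88.3 with intervals above the line, and the 7 at the bottom have intervals that reach it or, for adult tissue genes, lie below.

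Among core factors, 13 of 20 genes had a member. Sox2, a partner of OCT4, had 11, from pileup 8 to 107. Of these 9 lay downstream, and the taller of the 9 fell into a near and a far group. At 11.4 to 15.9 kb downstream stood 3 members with pileups of 42, 28 and 94, and at 82.5 and 92.5 kb downstream stood members of 39 and 107 (87.7 to 129). A distal control region downstream of Sox2 is known to be needed for its expression in mouse embryonic stem cells. The 4 members from 53.2 to 75.7 kb downstream had pileups of 8 to 12. The 2 upstream had pileups of 41 (at 73.5 kb) and 10 (at 48.5 kb). Nanog had 2, both upstream, of 69 (at 37.4 kb) and 22. Pou5f1, the gene of OCT4, had 1, of 68, with 5.7 kb of eligible sequence around it. Sall4, which encodes a zinc finger partner of OCT4, had 5 low ones, the tallest at 37. Zfp281, a zinc finger regulator of pluripotency, had 12, with a median of 46.5, the tallest 91 at 11.2 kb upstream. Mycn had 10, none above 42.

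The naive genes, which mark the ground state that 2i/LIF medium holds, included the tallest members of either list. Of 19 genes, 16 had at least 1. Prdm14, a repressor of differentiation genes, had 6, of which one at 27.8 kb reached 218 (190 to 249) and the others lay between 29 and 49. Klf5 had 10, led by 202 (175 to 232) at 10.97 kb and 142 at 26.2 kb, with 9 of the 10 on the same side of the gene. Klf4 had 7, and they were all tall or all low: 5 had pileups of 84 to 130 and the other 2 had 9 and 14. Of the tall ones 4 formed a cluster 46.4 to 62.3 kb downstream, where the background under 3 of them was 21.5 to 25.5 and their folds only 3.78 to 4.95. Zfp42, a marker of the naive state also known as Rex1, had 12, of which the tallest, 157 (133 to 184), lay 13.5 kb upstream and 6 were below 20. Tbx3, a T-box factor, had 13 on both sides with a tallest of 92 and a median of 43. Esrrb, an orphan nuclear receptor, had 2 of 16 and 15, Klf2 had 2 of 15 and 12, and Tfcp2l1 had none in 64.5 kb of eligible sequence.

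**Figure D5:**
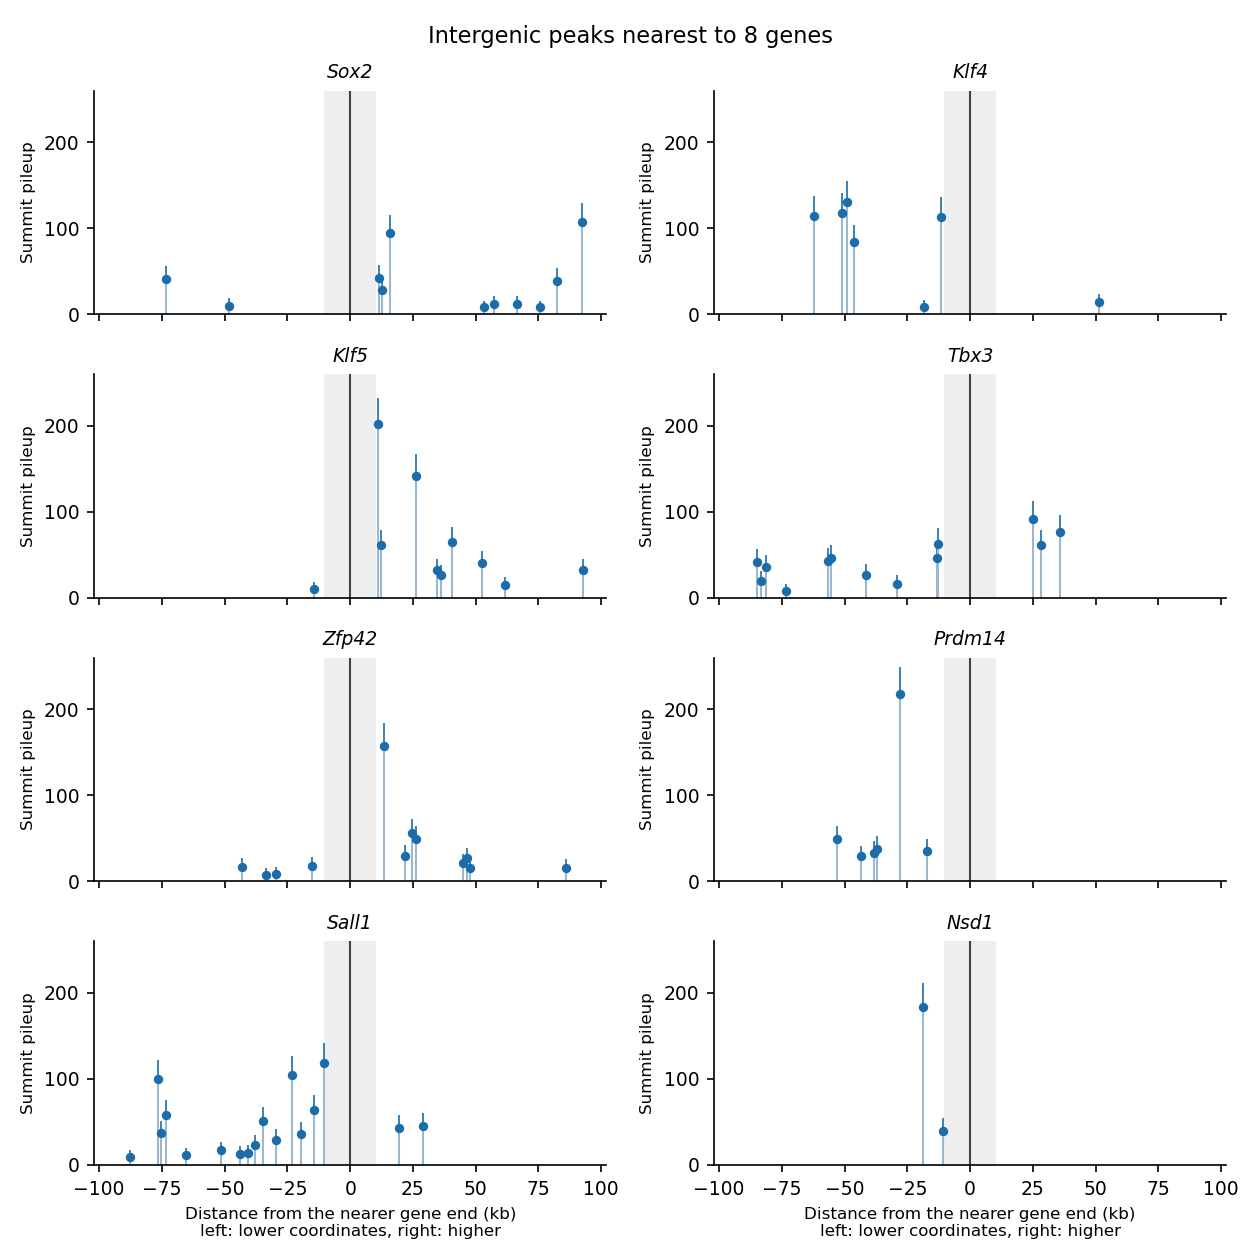
Summit pileup of every member nearest to 8 genes against its distance from the nearer end of the gene; negative distances are towards lower coordinates, the grey band marks the 10 kb left out by the rule, and bars are exact Poisson 95% intervals. Sox2, Klf4 and Sall1 have tall members (pileup of 84 or more) both close to the grey band and beyond 45 kb, while Prdm14 and Zfp42 have 1 tall member and several low ones.

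In the list of 2i and LIF signalling genes, 20 of 23 had a member, at 59.6 per Mb (47.6 to 73.7). This list also holds genes of TGF-beta and BMP signalling, such as Smad7 and Bmp4. The tallest member of the list was that of pileup 624 near Axin2, which had 3. Spry2, an inhibitor of the ERK pathway, had 11, the tallest 141 (119 to 166) at 23.6 kb upstream. Myc had 10, the tallest 106. Smad7, an inhibitor of TGF-beta signalling, had 8 in 37.8 kb of eligible sequence, with 77 as the tallest. Polycomb genes had 88.3 per Mb (68.0 to 113). Of 29 genes 14 (48.3%) had a member, against 27.8% of all protein-coding genes. Rybp (16), Jarid2 (12, tallest 118) and Eed (8, tallest 60) held 36 of the 64 members. Jarid2, an accessory subunit of Polycomb repressive complex 2, also stands in the core pluripotency list.

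Among the genes of H3K36 methylation, 4 of 13 (30.8%) had members, 8 in all, at 26.0 per Mb (11.2 to 51.2). Both values were near those of all protein-coding genes, 27.8% and 26.2 per Mb. Nsd1 itself, the tagged gene, had 2 in 10.5 kb of eligible sequence. The taller, of pileup 183 (157 to 212) and fold 12.7, lay at chr13:55189685-55190917, 18.9 kb from the gene's lower end, and the other had 40 at 10.7 kb. Setmar, Smyd2 and Kdm4c had 2 each, none above 27.

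Lineage genes had members at a lower density than core and naive genes, and of lower median pileup (15.5 to 22 by list), with exceptions. The formative and trophectoderm densities still lay above the 26.2 of all genes. In the formative list 23.5% of members reached a pileup of 50, near the 24.1% of core and naive genes. Of 19 formative and primed genes 10 had a member, at 53.5 per Mb (37.0 to 74.7). Foxd3, a forkhead factor active in stem cells, had 9 with 3 of 74 to 113, Otx2 had 5 with a tallest of 50, and Etv4 had 5 with a tallest of 37. The tallest of this list, 159, was 1 of 3 at Tcf15, and the tallest at Lef1 and Zic5 were 84 and 77. Nodal and Lefty1, a ligand of early patterning and its antagonist, had none, in 7.2 and 3.5 kb of eligible sequence. In trophectoderm 12 of 17 genes had members, at 45.4 per Mb (33.0 to 60.9), led by Tfap2c (9, tallest 113), Ets2 (8, tallest 107) and Tfap2a (5, tallest 60). Neurectoderm stood at 26.7 per Mb (19.04 to 36.3), with Sox1 (8, tallest 110), Sox11 (6, tallest 65) and En1 (5, tallest 45) in front. Mesoderm had 23.5 (16.2 to 32.8). Kdr had 6 of 9 to 22 and Msgn1 had 4 with a tallest of 35, while Eomes, which drives mesendoderm and trophoblast programmes, had one of 134 (112 to 159) 71.5 kb upstream. The member of 134 lay inside the body of the lncRNA gene Platr11. In definitive endoderm, at 21.3 (14.01 to 30.9), Gsc had 7 with a tallest of 81, Cxcr4 3 with 33 and Hhex 3 with 30. Extraembryonic endoderm had 20.3 (11.6 to 32.9) with no member at or above 50: Pdgfa had 5 with a tallest of 19, Gata6 4 with 18 and Lamb1 2 with 39.

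Genes of adult tissues had few members, and those of blood had too little eligible sequence to tell. Of 20 adult tissue genes 3 (15%, against 27.8% of all genes) had a member, 4 members in all, at 7.87 per Mb (2.14 to 20.1). These were Mbp of myelin (2, tallest 13), Ins2, an insulin gene (7), and the liver gene Cyp3a11, whose member at 26.9 kb had a pileup of 79 and a fold of 17.8. Of 19 blood genes 6 had any eligible sequence, 0.170 Mb in all, and Ptprc and Cd3e had 1 member each, of 19 and 14. Their density of 11.7 per Mb has an interval of 1.42 to 42.4, which includes the 26.2 of all genes. Housekeeping and ribosomal genes mostly lie where other genes are close, and 8 of 29 had any eligible sequence. Of these 4 had members, 19 in all, of which Ywhaz held 11, Actb 4 with one of 194 (168 to 223), and Rpl3 3. Their density of 87.4 per Mb (52.6 to 137) thus rests on 0.217 Mb.

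Noncoding genes held 2156 members (16.4%) in their bodies, 1939 of them in lncRNA genes, since the rule bars the ends of noncoding genes but not their bodies. The median pileup was 20 inside and 19 outside such bodies, and the median folds were 6.81 and 6.95. They lay in 1372 noncoding genes. Gm32611, beside Zc3h12a, had the most, 9 in 144 kb, none above 58. Gm26885, beside the kinase gene Pim1, had 7 in 44.7 kb with a tallest of 176 (151 to 204), and Gm36876 held the member of pileup 624 near Axin2. Tbx3os1, a lncRNA gene beside Tbx3, had 6 with a tallest of 63, which are also counted at Tbx3.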

How the data were processed

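Peaks of 1 untreated ATAC-seq library were analysed. Tn5 was applied to nuclei, and the DNA was then amplified and size-selected, per the labels' protocols. The submitters' processing notes name MACS2 2.2.6, deepTools 3.2.1, Bowtie2 2.3.4.1, SAMtools 1.9 and bcl2fastq 2.20.0.422, and the builds GRCm38.p6 and mm10. The sources used here do not give how duplicates, mapping quality, blacklisted regions and the Tn5 shift were handled. Kept reads of repeated sequence would raise peaks in repeats. Peak calling used this sample alone, with no control and q up to 0.05, per the label of the deposited list, so background levels are those of the same library.

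The deposited list gives, per peak, an integer score (10 times the authors' -log10 q, rounded down, in 100% of peaks), the authors' fold enrichment (a ratio), and the authors' -log10 p and -log10 q. No read total was given in those sources. Summit pileups were solved from the fold, taken as pileup plus 1 over background plus 1, and the Poisson p of that pileup. Of 77629 peaks 77626 gave a whole pileup within 0.01, as did all 13148 members. Reads and fragments cannot be told apart as its unit, and PCR copies are not independent molecules.

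Genes, biotypes and promoter windows came from RefSeq tables of GRCm38.p6; strand was known for 79.6% of protein-coding genes, those with a promoter window. Whole intervals were placed against genes. Eligible sequence was measured on points every 100 bp. Shares carry Wilson, densities and pileups exact Poisson intervals of 95%. Named are the 10 highest by fold and by pileup, the 5 largest clusters, the 10 genes nearest to most members (with ties), the 3 leading genes of each list, 17 fixed genes, and the peaks at the bounds. Other genes were named after their values were seen. The members, the 14 lists (some genes stand in 2) and the rule were chosen with earlier results of these data known. Functions were tested on simulated data. Alternatives varied the threshold, the placement, the margin, the biotypes, the stitching distance and the extreme peaks. Scripts ran in Python 3.11.15 with scipy 1.17.1, pandas 2.3.3, matplotlib 3.10.9 and numpy 2.4.6.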

Additional observations from a re-analysis of the deposited data

Results flagged for a closer look

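Chromosome X lies outside the rule, and the same distances applied there gave 514 peaks, a signal in data that the comparisons did not use. Their density was 10.2 per Mb of eligible sequence (exact Poisson 95% interval 9.32 to 11.1), which was 0.382 of the autosome median of 26.7. The lowest autosome, chromosome 3, had 20.5 and the highest, chromosome 11, had 35.2. The height of the listed peaks did not follow: the median pileup on X was 19, as in the members, and the median fold was 7.23. Sites too weak to be called are not in the list, so these medians do not compare the height of all sites. Whether the number of X copies bears on this was not tested.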

How the results depend on the processing

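Under the alternatives, 47 of 66 recomputed values stayed within the counting interval of the reported value, or within 1.5 times where no interval exists, 19 moved, and no ratio changed direction. With -log10 q of at least 5 the median pileup was 23, the median fold 7.82, the density 21.1 per Mb and the clustered share 52.0%. With a pileup of at least 20 there were 6554 members, with a median pileup of 33, a median fold of 9.84, a density of 13.1, a clustered share of 47.5% and a density around core and naive genes 3.34 times that of all members, where the reported ratio was 2.62. Placing only the summit gave a density of 27.0, and a margin of 2 kb a clustered share of 56.7%. With genes of any biotype as neighbours the density was 17.0, the clustered share 47.1%, the share of core and naive genes 28.2% and their density ratio 3.44. Stitching within 5 kb gave a clustered share of 33.6% and a pileup ratio of clusters of 5 or more to members alone of 2.39, where the reported ratio was 1.59; stitching within 25 kb gave a share of 71.1%. These settings change which peaks are counted, and causes beyond that were not tested. Leaving out the gap between Hrh1 and Atg7, chosen after seeing the data, moved none of the 9 results beyond those limits. The alternatives for the density ratio, the upstream to downstream ratio and the pileup ratio were also chosen after seeing the data. The planned shares of members with CTCF and ESRRB motifs, and their alternatives, were not run, since no genome sequence was used here. No paired analysis was possible because 1 library was analysed and no result comes from a test. Sites of pileup 5 or less could not be listed even at the lowest background.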

Other observations

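By chromosome, the median pileup of the members varied between 18 on chromosomes 10 and 16 and 21 on chromosomes 6 and 17, a narrower range than that of their density. Of 13129 gaps between neighbouring members of a chromosome, 702 were under 1 kb, and the median gap was 25.4 kb. A local background above 10 was found at 374 members. The nearest protein-coding gene had a provisional or clone-based symbol for 889 members (6.76%), and for 17 of the 100 members with the highest pileup.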
